A study of Mus musculus with 8 samples.

Results

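The genes of muscle calcium release and reuptake comprised 10 members, Ryr1, Cacna1s, Atp2a1, Atp2a2, Sln, Casq1, Casq2, Pvalb, Jph1 and Trdn, chosen by name from the 32849 gene symbols listed for mouse esophagus. All 10 passed the filter on low counts, beside 14864 tested genes in all. RNA sequencing had been performed on whole frozen esophagi of healthy, untreated mice, with 4 libraries from MGL KO mice and 4 from WT mice, to ask how the loss of monoacylglycerol lipase (MGL), the enzyme that degrades the endocannabinoid 2-arachidonoylglycerol, changes the esophageal transcriptome. MGL KO mice lacked the enzyme in all tissues and were bred in-house with WT littermates. Both sexes were used in the study, and the labels give neither sex nor age for single libraries. The labels number the libraries 1 to 4 in each group without naming animals, so p-values measure the spread between these libraries.

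In striated muscle, the dihydropyridine receptor, whose voltage-sensing subunit is encoded by Cacna1s, opens the ryanodine receptor Ryr1 in the membrane of the sarcoplasmic reticulum, and the calcium that leaves the store starts contraction. The calcium is then pumped back by the SERCA ATPases and held in the store by calsequestrin. The muscle coat of the mouse esophagus is largely striated, unlike the smooth muscle that moves the rest of the gut.

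No member was called different between MGL KO and WT esophagi. Of the 10 members, 0 were called by edgeR's quasi-likelihood test at an adjusted p below 0.05, where the share over all tested genes was 0.0471%. None had an unadjusted p below 0.05, against 8.65% of all tested genes, and none had its 4 MGL KO libraries on one side of its 4 WT libraries, against 6.02% of all tested genes. The fitted log2 fold change (MGL KO minus WT) was above 0 for 4 members and below 0 for 6, with a median of -0.04, beside 53.0% above 0 and a median of 0.02 over all tested genes. Without MGL KO replicate 4, 6 members were above 0 and 4 below, with a median of 0.12. When MGL KO replicate 2 and WT replicate 3 were left out instead, 4 were above 0 and 6 below, with a median of -0.10. With all libraries, the highest log2 fold change was that of Pvalb at 0.58 and the lowest that of Casq2 at -0.33. Atp2a2 stood highest in MGL KO replicate 4, the library where the other 9 members lay below their means, and Pvalb, Trdn, Sln, Casq1 and Jph1 stood highest in MGL KO replicate 2.

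The deposited counts summed to between 13479069 and 17090152 per library, and each member had at least 1416 counts in every library, so that counting error was small beside the spread between libraries. Levels are given as normalized CPM, which are counts scaled to the same total in each library, here with TMM factors (0.82 to 1.11). Mgll, the targeted gene, was at 13.7 ± 1.54 normalized CPM in MGL KO and 81.2 ± 9.97 normalized CPM in WT libraries (SD, n = 4), a log2 fold change of -2.57 (edgeR adjusted p = 0.000133). Striated muscle was present in every library, with all 14 striated muscle markers above 1 normalized CPM in WT and a summed level of 38089 to 86404 normalized CPM in MGL KO and 44286 to 68932 normalized CPM in WT libraries. MGL KO replicate 4 also held transcripts of other tissues. Its 7 cardiac markers summed to 2090 normalized CPM, against at most 113 normalized CPM in any other library, and its 7 airway secretory markers to 9596 normalized CPM, against at most 56.6. MGL KO replicate 2 and WT replicate 3 had the lowest summed squamous epithelium markers (4849 and 5726 normalized CPM, against 10688 or more in the others) and the highest summed striated muscle markers. In tissue of many cell types, fewer muscle cells and less RNA per muscle cell cannot be told apart.

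Promoter sequences were examined as a feature that the choice of genes did not use. RefSeq windows of 250 bases before to 50 bases after the start of the gene, on GRCm38.p6, matched 6 of the 10 members, with 7 windows, since Pvalb had more than 1. Atp2a2, Sln, Jph1 and Trdn were not matched. The windows of the voltage sensor, the release channel and the fast-fiber pump are printed because these genes varied together across libraries, and those of both calsequestrins because they encode forms of the same protein, each 5′ to 3′ in lower case with every match to CANNTG, the E-box bound by the MyoD family of muscle factors, in capitals.
Cacna1s (chr1:136052561-136052860, strand +): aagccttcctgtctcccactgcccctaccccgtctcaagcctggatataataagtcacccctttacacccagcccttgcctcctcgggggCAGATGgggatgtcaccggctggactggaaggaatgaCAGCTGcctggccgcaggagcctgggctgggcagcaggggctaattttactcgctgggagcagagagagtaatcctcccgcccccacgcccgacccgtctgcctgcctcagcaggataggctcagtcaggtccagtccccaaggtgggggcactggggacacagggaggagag
Ryr1 (chr7:29125102-29125401, strand -): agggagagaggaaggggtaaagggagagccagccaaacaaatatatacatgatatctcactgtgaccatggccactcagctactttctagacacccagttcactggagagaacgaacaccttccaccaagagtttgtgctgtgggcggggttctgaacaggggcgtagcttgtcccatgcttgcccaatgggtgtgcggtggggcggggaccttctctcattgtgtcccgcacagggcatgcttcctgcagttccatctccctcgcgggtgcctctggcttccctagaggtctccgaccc
Atp2a1 (chr7:126463024-126463323, strand -): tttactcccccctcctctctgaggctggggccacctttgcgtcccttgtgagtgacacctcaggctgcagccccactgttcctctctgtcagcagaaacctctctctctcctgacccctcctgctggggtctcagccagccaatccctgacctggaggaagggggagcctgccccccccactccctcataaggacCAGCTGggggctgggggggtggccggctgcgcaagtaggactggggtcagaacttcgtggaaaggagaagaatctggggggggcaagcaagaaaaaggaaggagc
Casq1 (chr1:172219846-172220145, strand -): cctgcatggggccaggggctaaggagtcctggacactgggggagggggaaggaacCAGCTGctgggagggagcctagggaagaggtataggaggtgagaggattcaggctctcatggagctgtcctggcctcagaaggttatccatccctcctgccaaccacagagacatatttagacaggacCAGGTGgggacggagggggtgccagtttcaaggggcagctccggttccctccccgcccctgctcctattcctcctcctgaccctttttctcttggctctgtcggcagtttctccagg
Casq2 (chr3:102086165-102086464, strand +): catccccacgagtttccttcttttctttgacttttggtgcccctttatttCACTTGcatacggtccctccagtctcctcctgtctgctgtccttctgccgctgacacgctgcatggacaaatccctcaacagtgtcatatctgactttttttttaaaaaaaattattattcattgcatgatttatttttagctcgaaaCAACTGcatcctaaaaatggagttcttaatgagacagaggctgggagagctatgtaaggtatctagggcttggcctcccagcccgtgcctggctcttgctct
The letters CANNTG, which read the same on both strands, were found in the windows of 5 of the 6 matched members and in 72.3% of 32851 RefSeq windows of the same length, so that the members were near the share of all windows. The form CAGCTG, 1 kind of CANNTG, was found in Cacna1s, Atp2a1 and Casq1, and in 16.3% of all windows. The Ryr1 window held no CANNTG. A match to the MEF2 motif was found in Casq2 and in 1 Pvalb window, and in 3.19% of all windows on either strand. The Casq2 window had a GC content of 44.7%, against 60.3% for Casq1, 62.3% for Atp2a1, and a median of 52.7% over all windows. These matches describe letters only, and binding was not measured in these libraries.

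**Figure D1:**
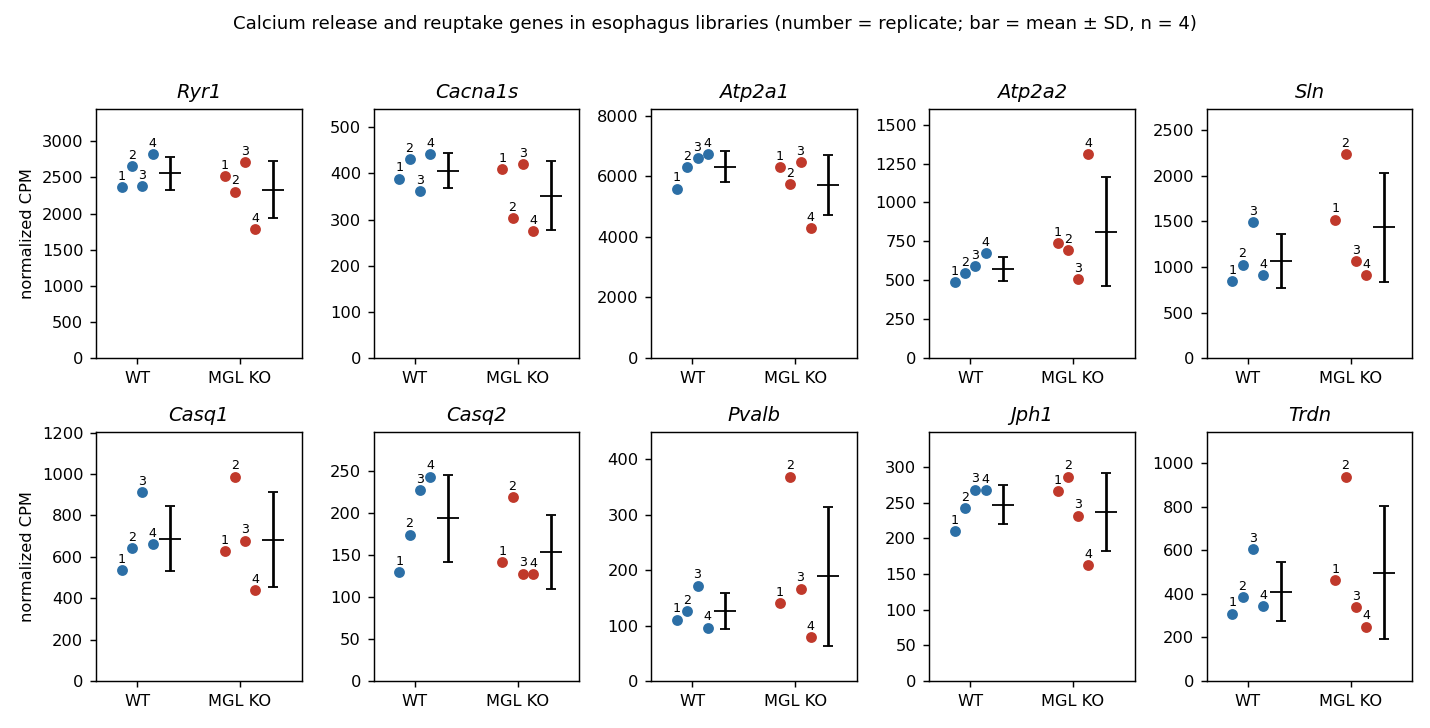
Normalized CPM (vertical axes, from 0) of each of the 10 members in the 4 WT and 4 MGL KO libraries, with the replicate number above each point and a bar for the mean ± SD (n = 4). The groups overlap in every panel, and Pvalb runs from 79.6 normalized CPM in MGL KO replicate 4 to 369 in MGL KO replicate 2.

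The first step of release was examined with Cacna1s and Ryr1. Cacna1s, which encodes the pore-forming subunit that senses the voltage of the transverse tubule, lies on chromosome 1 of GRCm39 from 135980259 to 136047560. It was at 409, 303, 421 and 275 normalized CPM in MGL KO replicates 1 to 4 and at 388, 431, 362 and 442 normalized CPM in WT replicates 1 to 4. MGL KO replicates 2 and 4 were below all WT libraries, and replicates 1 and 3 lay within the WT range. In the fit, the log2 fold change was -0.21 (SE 0.17, 95% interval -0.58 to 0.17, edgeR adjusted p = 0.731), and it was -0.10 without MGL KO replicate 4 and -0.14 without MGL KO replicate 2.

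Ryr1, the calcium release channel of skeletal muscle, lies on chromosome 7 of GRCm39 from 28702769 to 28824604. It was at 2515, 2302, 2716 and 1788 normalized CPM in MGL KO replicates 1 to 4 and at 2364, 2651, 2377 and 2826 normalized CPM in WT replicates 1 to 4. Only MGL KO replicate 4 stood clearly apart, at the bottom, and the remaining libraries of both groups were intermixed. The log2 fold change was -0.13 (SE 0.17, interval -0.51 to 0.25, edgeR adjusted p = 0.822), and without MGL KO replicate 4 it was -0.02. Ratios of counts between members were compared across libraries and were not corrected for length. The count of Ryr1 was 6.09 to 7.59 times that of Cacna1s, and the log2 ratio differed between the groups by 0.08 (two-sided exact permutation p = 0.371, 0.464 adjusted over 5 ratios). With 1 library left out, this difference ranged from 0.016 without MGL KO replicate 2 to 0.12 without MGL KO replicate 1.

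The junction that holds channel and sensor together was represented by Jph1 and Trdn. Jph1 encodes junctophilin, which tethers the sarcoplasmic reticulum to the transverse tubule, and lies on chromosome 1 of GRCm39 from 17012318 to 17168113. Jph1 was at 266, 286, 232 and 162 normalized CPM in MGL KO replicates 1 to 4 and at 210.0, 243, 268 and 267 normalized CPM in WT replicates 1 to 4. The groups overlapped, with the highest and the lowest value both in MGL KO libraries. Jph1 had a log2 fold change of -0.06 (SE 0.18, interval -0.47 to 0.35, edgeR adjusted p = 0.926), which became 0.082 without MGL KO replicate 4.

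Trdn encodes triadin, which anchors calsequestrin to the release channel, and lies on chromosome 10 of GRCm39 from 32956550 to 33356376. It was at 465, 939, 338 and 249.99 normalized CPM in MGL KO replicates 1 to 4 and at 309, 385, 606 and 343 normalized CPM in WT replicates 1 to 4. A single library, MGL KO replicate 2, exceeded all others, and the next highest was WT replicate 3. The log2 fold change of 0.28 (SE 0.40, interval -0.63 to 1.18, edgeR adjusted p = 0.845) changed its sign to -0.22 when MGL KO replicate 2 was left out.

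Calsequestrin binds calcium inside the store, with Casq1 as the main form of fast fibers and Casq2 as the form of the heart and slow fibers. Casq1 lies on chromosome 1 of GRCm39 from 172037459 to 172049328. It was at 628, 988, 679 and 438 normalized CPM in MGL KO replicates 1 to 4 and at 537, 644, 912 and 660.1 normalized CPM in WT replicates 1 to 4. Both groups had 1 high library, MGL KO replicate 2 and WT replicate 3, and the group means were close, at 683 ± 228 and 688 ± 159 normalized CPM (SD, n = 4). For Casq1 the log2 fold change was -0.01 (SE 0.26, interval -0.59 to 0.57, edgeR adjusted p = 0.992). Its sign turned on single libraries, from -0.24 without MGL KO replicate 2 to 0.16 without WT replicate 3.

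Casq2 lies on chromosome 3 of GRCm39 from 101993234 to 102056307. It was at 142, 219.6, 128 and 127 normalized CPM in MGL KO replicates 1 to 4 and at 129.6, 174, 227 and 244 normalized CPM in WT replicates 1 to 4. In MGL KO, 3 libraries lay near the lowest WT library and replicate 2 stood far above them. Casq2 had a log2 fold change of -0.33 (SE 0.24, interval -0.88 to 0.22, edgeR adjusted p = 0.709), with a range of -0.55 to -0.20 when each library was left out in turn. In MGL KO replicate 4, the library with high cardiac markers, Casq2 was at the low end of all 8 libraries. The count of Casq1 was 3.44 to 5.31 times that of Casq2 in MGL KO and 2.71 to 4.14 times in WT libraries, a difference in the log2 ratio of 0.28 (exact permutation p = 0.2, 0.333 adjusted over 5 ratios). With 1 library left out, it ranged from 0.15 without WT replicate 4 to 0.40 without MGL KO replicate 4.

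Reuptake was carried by a pair of SERCA genes. Atp2a1 encodes SERCA1, the pump of fast fibers, and lies on chromosome 7 of GRCm39 from 126045013 to 126063423. It was at 6291, 5729, 6477 and 4299 normalized CPM in MGL KO replicates 1 to 4 and at 5593, 6300.2, 6603 and 6740 normalized CPM in WT replicates 1 to 4. MGL KO replicate 4 was again the lowest, and the other libraries overlapped. Between the groups, the log2 fold change of Atp2a1 was -0.15 (SE 0.18, interval -0.55 to 0.26, edgeR adjusted p = 0.815), and it was -0.032 without MGL KO replicate 4. The log2 ratio of Ryr1 to Atp2a1 was -1.29 ± 0.03 in MGL KO and -1.30 ± 0.11 in WT (SD, n = 4), a difference of 0.02 (exact permutation p = 0.971, also after adjustment). With 1 library left out, this difference ranged from -0.041 without WT replicate 3 to 0.036 without WT replicate 1.

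Atp2a2 encodes SERCA2, the pump of heart, slow fibers and, in another isoform, of most other cells, and lies on chromosome 5 of GRCm39 from 122591575 to 122640903. It was at 739, 691, 508 and 1313 normalized CPM in MGL KO replicates 1 to 4 and at 487, 545, 592 and 673 normalized CPM in WT replicates 1 to 4. MGL KO replicate 4 was far above all other libraries, replicates 1 and 2 lay just above the WT range, and replicate 3 was inside it. Atp2a2 had a log2 fold change of 0.50 (SE 0.27, interval -0.11 to 1.12, edgeR adjusted p = 0.640), which was 0.17 (SE 0.17, edgeR adjusted p = 0.709) without MGL KO replicate 4. In that library, each of the 7 cardiac markers exceeded every other library by more than 5 times, among them Myh6, the alpha myosin heavy chain of the heart, at 1170.5 normalized CPM against at most 9.06, and Myl7, the atrial light chain, at 187 against at most 3.42. Their part in the Atp2a2 value was not tested.

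**Figure D2:**
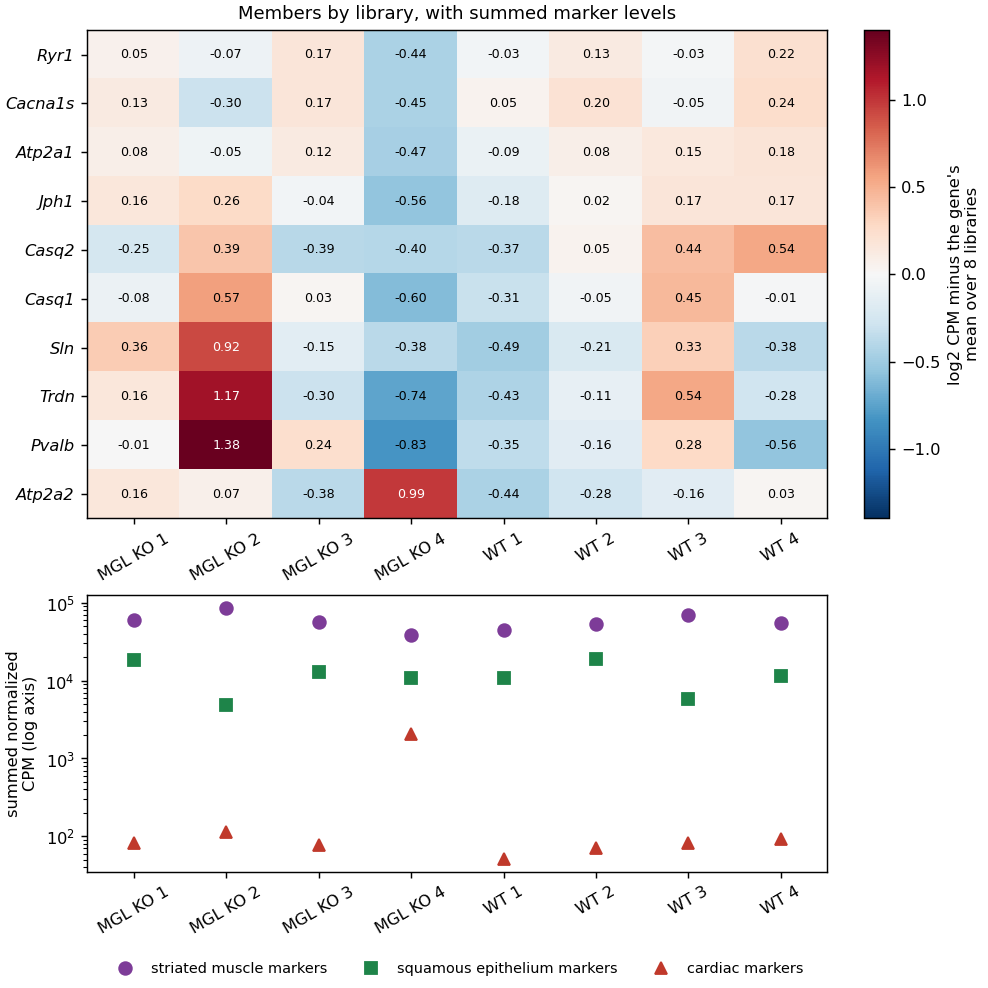
Upper panel, log2 CPM of each member minus its mean over the 8 libraries, by library (color scale and printed values); lower panel, summed normalized CPM of striated muscle, squamous epithelium and cardiac markers in the same libraries (log axis). In MGL KO replicate 4, 9 members are below their means by 0.38 to 0.83 and Atp2a2 is above by 0.99, in the column where cardiac markers reach 2090 normalized CPM.

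The count ratio of the pumps was lowest in the same library. The count of Atp2a1 was 8.51, 8.29, 12.7 and 3.27 times that of Atp2a2 in MGL KO replicates 1 to 4 and 11.5, 11.6, 11.2 and 10.02 times in WT replicates 1 to 4. The WT libraries were close together, whereas MGL KO replicates lay on both sides of them. The log2 ratio was 2.88 ± 0.83 in MGL KO and 3.46 ± 0.10 in WT (SD, n = 4), a difference of -0.58 (two-sided exact permutation p = 0.143, 0.333 adjusted over 5 ratios, where the smallest p that 4 against 4 libraries allow is 0.0286). With 1 library left out at a time, the difference lay between -0.85 and -0.19.

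Sln encodes sarcolipin, a small membrane peptide that binds SERCA and lowers its transport of calcium, and lies on chromosome 9 of GRCm39 from 53742537 to 53761846. It was at 1518, 2240.0, 1066 and 909 normalized CPM in MGL KO replicates 1 to 4 and at 841, 1024, 1491 and 908 normalized CPM in WT replicates 1 to 4. MGL KO replicates 1 and 2 were above all WT libraries and the other MGL KO libraries were inside the WT range. The log2 fold change was 0.43 (SE 0.31, interval -0.26 to 1.12, edgeR adjusted p = 0.702), and it was 0.13 without MGL KO replicate 2. Relative to Atp2a1, the log2 ratio of Sln was higher in MGL KO by 0.54 (exact permutation p = 0.114, 0.333 adjusted over 5 ratios). This difference was 0.30 without MGL KO replicate 2 and at most 0.72 with any other library left out.

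Pvalb encodes parvalbumin, the soluble calcium buffer of fast fibers, and lies on chromosome 15 of GRCm39 from 78075314 to 78091149. It was at 141, 369, 167 and 79.6 normalized CPM in MGL KO replicates 1 to 4 and at 111, 127, 172 and 96.1 normalized CPM in WT replicates 1 to 4. The highest and the lowest library were both MGL KO, and the remaining MGL KO libraries were inside the WT range. The log2 fold change was 0.58 (SE 0.42, interval -0.36 to 1.52, edgeR adjusted p = 0.702). It was 0.84 without MGL KO replicate 4 (edgeR adjusted p = 0.522) and 0.03 without MGL KO replicate 2.

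**Figure D3:**
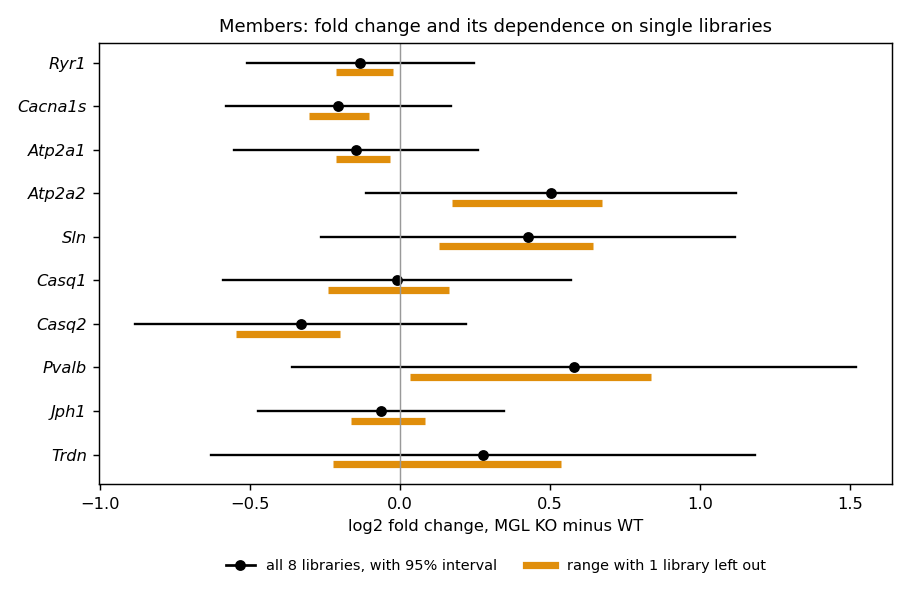
Log2 fold change of each member, MGL KO minus WT (horizontal axis), as a point with its 95% interval from all 8 libraries, and an orange bar for the range of values with 1 library left out at a time. All 10 intervals include 0, and the bars of Casq1, Jph1 and Trdn extend to both sides of 0.

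Levels were then compared between members per kilobase of the canonical transcript (GENCODE vM39). In WT libraries, Atp2a1 was the highest at 1524 ± 124 normalized CPM per kilobase, followed by Sln at 809 ± 222 and Casq1 at 318 ± 73.3 (SD, n = 4). Ryr1 followed at 166 ± 14.6, Atp2a2 at 129 ± 17.7, Cacna1s at 64.0 ± 5.92 and Jph1 at 51.2 ± 5.68 normalized CPM per kilobase. Pvalb, Trdn and Casq2 were the lowest at 40.2 ± 10.5, 37.0 ± 12.03 and 35.0 ± 9.40 normalized CPM per kilobase. The ranges of WT libraries did not overlap between neighbors from Atp2a1 down to Jph1, although those of Ryr1 (153.9 to 184.0) and Atp2a2 (109.8 to 151.6) nearly met. The ranges of Jph1, Pvalb, Trdn and Casq2 overlapped from each to the next, with Jph1 the highest of these in each of the 4 WT libraries, and the order of Pvalb, Trdn and Casq2 differed between libraries. With the length of all annotated exons in place of the canonical transcript, Ryr1 moved above Casq1 and Cacna1s above Atp2a2. By that length Casq2 (33.93) was level with Pvalb (33.90), and Trdn was the lowest at 19.6 normalized CPM per kilobase.

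**Figure D4:**
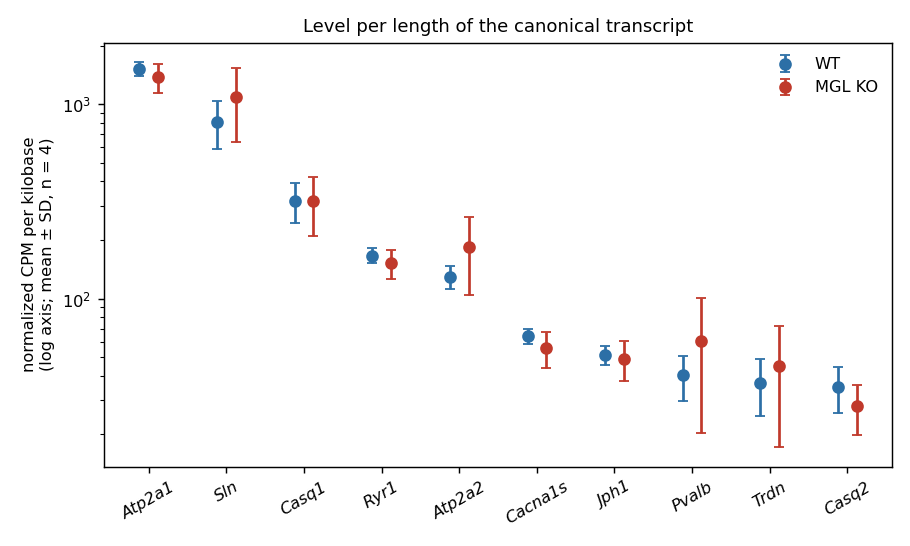
Normalized CPM per kilobase of canonical transcript (log axis) of each member, ordered by the WT mean, with points for the mean of 4 libraries and bars for the SD in WT and MGL KO. Levels run from 1524 for Atp2a1 to 35.0 for Casq2 in WT, and the MGL KO bars of Atp2a2, Pvalb and Trdn are the widest relative to their WT bars.

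The members differed in how much they varied among libraries of the same group. The SD of log2 CPM within groups was 0.69 for Pvalb, 0.65 for Trdn, 0.48 for Sln, 0.43 for Atp2a2, 0.41 for Casq1 and 0.39 for Casq2. It was 0.28 for Jph1, 0.24 for Cacna1s and 0.21 for both Ryr1 and Atp2a1, beside a median of 0.20 over the 3786 tested genes with 50 or more normalized CPM. In MGL KO replicate 2, log2 CPM exceeded the mean of the 8 libraries by 1.38 for Pvalb, 1.17 for Trdn, 0.92 for Sln and 0.57 for Casq1, while Ryr1, Atp2a1 and Cacna1s were below theirs at -0.07, -0.05 and -0.30. In WT replicate 3 the deviations were 0.54 for Trdn, 0.45 for Casq1 and 0.44 for Casq2, beside -0.03 for Ryr1, -0.05 for Cacna1s and 0.15 for Atp2a1. The same libraries were thus high for some members and not for others. Across the 8 libraries, log2 CPM of Ryr1 correlated with Cacna1s (r = 0.92) and Atp2a1 (r = 0.93), and Trdn with Sln (r = 0.95), Casq1 (r = 0.92) and Pvalb (r = 0.91), as a description of libraries that share their normalization and in which MGL KO replicate 4 was low for all of these genes. Deviations were taken from the mean of the 8 libraries, so low values in some libraries bring high values in others. Over 55 genes of muscle, the members among them, deviations were also set against transcript length. The Spearman correlation was -0.50 in MGL KO replicate 2 and -0.52 in WT replicate 3, and 0.21 to 0.42 in the other 6 libraries. Over 14598 genes it was weaker, at -0.13 in MGL KO replicate 2, -0.19 in WT replicate 3 and 0.027 to 0.15 in the others. The part of transcript length in these deviations was not tested.

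The mean log2 CPM of the 10 members followed that of the 14 striated muscle markers across the 8 libraries (Pearson's r = 0.99, exact permutation p = 0.000198; Spearman's rho = 0.98, exact permutation p = 0.000397). Without MGL KO replicates 2 and 4, the libraries farthest from the median marker level, r was 0.97 (exact permutation p = 0.0111, n = 6). Both means are of striated muscle genes under the same normalization, so a high r was likely beforehand, and these p-values say little about the members. The mean does not describe each member. In MGL KO replicate 2, which had the highest marker level, Ryr1, Cacna1s and Atp2a1 were below their means and the other members above theirs. With the marker level as a covariate, the log2 fold changes were 0.38 for Sln (edgeR adjusted p = 0.226), -0.33 for Casq2 (adjusted p = 0.313), 0.38 for Pvalb (adjusted p = 0.372) and 0.45 for Atp2a2 (adjusted p = 0.397). The value of Pvalb had been 0.58 and that of Trdn moved from 0.28 to 0.14, while the other 5 members lay between -0.21 and -0.04, and no member was called. Of 14854 other genes, Mypn, Lrpprc, Smyd1, Myh8 and Gys1 had the highest correlation with the members' mean standardized level (r from 0.985 to 0.989 over 8 libraries, a description without a test). Mypn encodes the sarcomere protein myopalladin, Smyd1 a methyltransferase of striated muscle, Myh8 the perinatal myosin heavy chain, Gys1 muscle glycogen synthase and Lrpprc a regulator of mitochondrial mRNA.

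The other genes of the pathway were then read from the same fit. Of 24 partners of release and the triad, 0 were called, 12 had a log2 fold change above 0 and 12 below, and the median was 0.02. Without MGL KO replicate 4, 20 were above 0 and 4 below, with a median of 0.15. When MGL KO replicate 2 and WT replicate 3 were left out instead, 9 were above 0 and 15 below, with a median of -0.04. Asph, whose locus also encodes junctin, was the 1 gene of these 24 whose groups did not overlap (6.02% of all tested genes), at 170.0, 262, 176 and 164 normalized CPM in MGL KO and 127, 142, 156 and 155 normalized CPM in WT libraries. Its log2 fold change of 0.41 (SE 0.17) did not pass the test (edgeR adjusted p = 0.550).

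Ryr2, the release channel of the heart, was at 3.61, 3.25, 3.88 and 87.9 normalized CPM in MGL KO replicates 1 to 4 and at 1.88 to 5.28 normalized CPM in WT libraries. Its log2 fold change of 2.96 (edgeR adjusted p = 0.550) was 0.17 without MGL KO replicate 4. At the other end of the list, Ryr3, a release channel of lower abundance in muscle, had a log2 fold change of -0.50 (SE 0.22, edgeR adjusted p = 0.584), and Clcn1, the chloride channel of the muscle membrane, one of -0.39 (SE 0.16, edgeR adjusted p = 0.560).

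Among the pump and its small regulators, 6 of 7 genes were tested, 0 were called, 5 were above 0 and 1 below, and the median log2 fold change was 0.22. Without MGL KO replicate 4, 4 were above 0 and 2 below, with a median of 0.12. Pln encodes phospholamban, the SERCA inhibitor of heart and slow fibers. It was at 2.63, 7.85, 1.66 and 11.5 normalized CPM in MGL KO replicates 1 to 4 and at 1.28 to 3.13 normalized CPM in WT libraries, with a log2 fold change of 1.46 (SE 0.61, edgeR adjusted p = 0.566). Without MGL KO replicate 4, whose cardiac markers were high, the log2 fold change of Pln was 0.90. Mrln, which encodes the SERCA inhibitor myoregulin, had a log2 fold change of 0.31 (edgeR adjusted p = 0.738), which was 0.47 without that library. Strit1, which encodes a peptide that displaces SERCA inhibitors, had 0 counts in every library, where 3 counts correspond to 0.167 to 0.271 normalized CPM. Atp2a3 (SERCA3) and Sri (sorcin), the lowest of this list, had log2 fold changes of -0.13 and 0.12, and Calr, the calreticulin of the endoplasmic reticulum and the highest by CPM, one of 0.22. Without MGL KO replicate 4 these values were -0.33 for Atp2a3, -0.17 for Sri and 0.074 for Calr.

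Of 15 genes of calcium entry, extrusion and mitochondrial uptake, 0 were called, 9 were above 0 and 6 below, and the median log2 fold change was 0.08. Calm2, one of the calmodulin genes, was at 307, 359, 288 and 309 normalized CPM in MGL KO and 257, 241, 258 and 257 normalized CPM in WT libraries. It was the 1 gene of these 15 whose groups did not overlap (6.02% of all tested genes), and its log2 fold change was 0.32 (SE 0.11, edgeR adjusted p = 0.503). Stim1, the calcium sensor of the store and the highest of this list by CPM, was at 454 ± 66.9 normalized CPM in MGL KO and 472 ± 50.9 normalized CPM in WT (SD, n = 4). Cacna1c, the channel of heart and smooth muscle, and the exchanger Slc8a2 had the lowest log2 fold changes, at -0.17 and -0.15.

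Part of the exon sequence of some members is shared with other annotated genes, 30.3% for Atp2a2, 20.8% for Cacna1s and 17.6% for Atp2a1. Among the named pathway genes the share was highest for Sri (54.4%), Pln (45.9%) and Strit1 (24.1%). The counting of strand is not given in the sources used here. The counts of all these genes may therefore include reads of the overlapping genes or lack reads of their own. The part of overlap in their levels was not tested. For Sln, Casq2 and Pvalb no exon overlapped another gene.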

How the data were processed

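RNA of 4 MGL KO and 4 WT esophagi was selected for poly(A) tails and sequenced. The authors checked reads with FastQC 0.11.9, trimmed adapters with Cutadapt, aligned with STAR 2.7.10b to GRCm39, and deposited raw counts per gene symbol. The counting tool, annotation and strand setting are not given in the sources used here. Groups were taken from the labels. Members and gene lists were chosen with earlier results of these data known.

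Genes were kept with filterByExpr at a minimum count of 10 (14864 genes). With TMM factors, edgeR 4.0.16 (R 4.3.3) fitted MGL KO minus WT by quasi-likelihood, with Benjamini-Hochberg adjustment over all tested genes. Standard errors were derived from the fold change and the F statistic, and 95% intervals used the t distribution of that fit. Log2 CPM used a prior count of 1. For each library, 5 ratios of member counts (0.5 added) were compared by exact permutation. Positions and lengths are from GENCODE vM39. Named were all members and, in each pathway list, genes whose groups do not overlap, the highest level, the 2 highest and 2 lowest fold changes, small pump regulators, and the 5 genes most like the members. Some genes that this rule names are not reported here.

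The alternatives were the exact test named in the study's methods (filtered and unfiltered), DESeq2 1.42.0, limma-voom (limma 3.58.1) with quality weights, a robust fit, 3 other scalings (RLE, upper quartile, or none beyond library size), other filters, other pseudocounts, a replicate block, a striated muscle covariate and leaving out each library. An offset for GC content and length, and leaving out MGL KO replicate 2 and WT replicate 3 together, were added once the data had been seen. Within each group, every 2 libraries differed by more than sampling noise (chi-square per degree of freedom 13.6 or more). Depth lay between 13479069 and 17090152 counts, and limits from 3 counts cover counting error only.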

Additional observations from a re-analysis of the deposited data

Results flagged for a closer look

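Of 88 sets of 4 libraries examined (levels, marker sums and ratios in each group), 10 had 1 library far from the other 3. For independent sets not chosen by their values, chance would give about 4.4. These sets share libraries, and some genes were named by their fold changes or group separation, so the counts cannot be compared. Among the members this was Casq2 in MGL KO, at 219.6 normalized CPM in replicate 2 and 142 in the next library. The log2 ratio of Ryr1 to Atp2a1 was -1.47 in WT replicate 3 and -1.25 in the next WT library. Of the pathway genes, Asph reached 262.3 normalized CPM in MGL KO replicate 2 (next 176), and in MGL KO replicate 4 Ryr2 reached 87.9 normalized CPM (next 3.88) and Stim1 only 354 (next 480.0). Calm2 was at 241 normalized CPM in WT replicate 2, against 257 in the next WT library. The summed cardiac markers were at 2090 normalized CPM in MGL KO replicate 4 (next 113), the airway ciliated markers at 715 (next 20.6) and the airway secretory markers at 9596 (next 56.6). The summed thyroid markers were at 5.80 normalized CPM in WT replicate 1 (next 0.856).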

How the results depend on the processing

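The count of members called and that of pathway genes called was 0 under all 22 alternatives, with leave-one-out ranges of 0 to 0. Over all genes tested, the calls numbered between 2 and 137, with 137 for DESeq2, 65 for the exact test on filtered genes, 42 for it on all genes with a count, 36 with the striated muscle covariate, 25 with limma-voom and at most 7 in the others. The direction of the fold change was kept in 212 of 220 member values. Casq1 changed sign under 6 alternatives, at 0.000475 with DESeq2, 0.000462 with RLE factors, 0.035 with the GC content and length offset, and 0.034, 0.15 and 0.16 on leaving out MGL KO replicate 1, MGL KO replicate 4 or WT replicate 3. Leave-one-out ranges were -0.24 to 0.16 for Casq1, -0.22 to 0.54 for Trdn (lowest without MGL KO replicate 2) and -0.16 to 0.082 for Jph1 (highest without MGL KO replicate 4). The difference in the log2 ratio of Ryr1 to Atp2a1 ranged from -0.041, without WT replicate 3, to 0.036, and was -0.032 when MGL KO replicate 2 was left out as well. The cause was not tested. An unadjusted p below 0.05 was reached by Casq2 with limma-voom, without MGL KO replicate 2 and, together with Sln, with the striated muscle covariate, by Atp2a2 without MGL KO replicate 3, and by Pvalb without MGL KO replicate 4. Leaving out each library in turn gave r between 0.986 and 0.998 for the members against striated muscle markers. Replicate numbers did not pair the libraries (correlations of -0.28 to 0.08), and the replicate block gave 0 calls among members and pathway genes (2 over all genes), with log2 fold changes of 0.42 for Atp2a2, 0.14 for Trdn, 0.38 for Pvalb and -0.045 for Casq1, the last 3 moved by over 1.5 times. Under limma-voom with quality weights the values of 6 members moved by over 1.5 times, to 0.22 for Atp2a2, 0.10 for Trdn, 0.37 for Pvalb, -0.12 for Cacna1s, -0.075 for Atp2a1 and -0.027 for Casq1. Other settings moved values as well. The GC content and length offset gave -0.037 for Ryr1 and -0.087 for Atp2a1. Leaving out MGL KO replicate 2 and WT replicate 3 together gave 0.024 for Trdn, 0.22 for Pvalb, -0.12 for Jph1 and -0.075 for Casq1. Library size alone gave 0.17 for Trdn, -0.13 for Jph1 and -0.084 for Casq1. With 4 libraries per group, the intervals of Atp2a2, Sln, Pvalb and Trdn included changes of 1 on the log2 scale.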
